A study of Rattus norvegicus with 9 samples.

Results

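Hearts of rats kept at 34 °C for 1 month (long-term heat acclimation) were compared with hearts of untreated rats, the control. These are 2 of the 9 samples of the study, chosen by their labels, and each of the 2 groups is 1 deposited sample. All 87 array rows deposited for them are described. The tissue was the left ventricle, and per the labels RNA of individual rats was combined into 3 pools with 6 animals stated for each group. Strain, sex, age and the housing temperature of the untreated rats are not stated in the labels. A second pair of samples was used for comparison. These were rats with the same 1 month at 34 °C that were then heat-stressed (41 °C for 2 h, then 1 h of recovery at 24 °C), and rats heat-stressed in the same way without acclimation. Samples of rats acclimated for 2 days, of rats returned to 24 °C for 1 month after the month at 34 °C (deacclimated) and of rats then put back at 34 °C for 2 days (reacclimated) are cited for single rows.

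Heat acclimation develops over weeks when an animal lives in sustained moderate heat. In the rat heart it is known for a change in contractile performance and energy use, for larger stores of heat shock proteins, which keep other proteins folded, and for better tolerance of other stresses such as lack of oxygen. A short exposure mostly triggers an acute stress response, and the stable acclimated state takes weeks to form. The ventricle was profiled here with a Clontech array, on which DNA fragments fixed to a support capture radioactively labelled copies of the tissue's RNA.

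The files give the 87 rows as array names without genes, and the RefSeq gene table matched 0 of them, so those array names are used here, no pathway could be described and the tissue could not be checked against its markers. One table lists a log2 ratio of each group to the control. The other lists an intensity for each group on a linear scale. With 1 value per group there is no replicate and no test, and all differences below are sizes. In a bulk sample, a change in the number of cells of a type and a change in RNA per cell cannot be told apart.

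Both samples could be read in full in both tables. Intensities went from 209.9 to 26633 (median 2774.5) in acclimated hearts and from 66.8 to 24648 (median 3318.3) in control hearts, and 0 of 87 rows were at or below 0 in either. Before comparison the log2 intensities had the sample's own median taken off, computed over the 59 rows that were above 0 in all 9 samples, and the result is called the scaled intensity. Listed ratios were then correlated across rows with each group's scaled intensity minus that of the control, so all of these correlations share the control. The listed ratios of the acclimated group correlated most closely with that group's own intensity differences (Pearson's r = 0.521). The next group was rats acclimated for 2 days (0.352). The heat-stressed and the deacclimated samples did not behave so. The ratios of the heat-stressed sample correlated at 0.229 with its own intensity differences and at 0.489 with those of the 2 d acclimated, heat-stressed group. This bears on the last comparison below. The ratios of the deacclimated sample correlated at 0.466 with its own intensity differences and at 0.556 with those of reacclimated, heat-stressed hearts. This bears on the deacclimated values cited for single rows. The labels do not say whether an intensity is of 1 pool or a summary of the pools, so both tables may not cover the same material, and a difference between them can hold that as well as error.

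By listed ratio, acclimated hearts showed small differences from control hearts in most rows. By scaled intensity, only 31 of the 87 rows differed by less than 1.5-fold. The listed log2 differences went from -1.32 to 2.36, with a median of 0.13 and quartiles at -0.30 and 0.61, and 50 rows lay above 0 and 37 below. A difference of at least 2-fold, a log2 difference of 1, was reached upward by 10 rows (11.5% of 87) and downward by 2 rows (2.30%). A further 14 rows were higher and 13 lower by between 1.5-fold and 2-fold, so that 27.6% of the 87 rows were at least 1.5-fold higher and 17.2% at least 1.5-fold lower, and 48 rows differed by less than 1.5-fold. The counts of higher and lower rows depend on where 0 is set, since after subtraction of the median 8 rows were at least 2-fold higher and 5 lower.

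**Figure D1:**
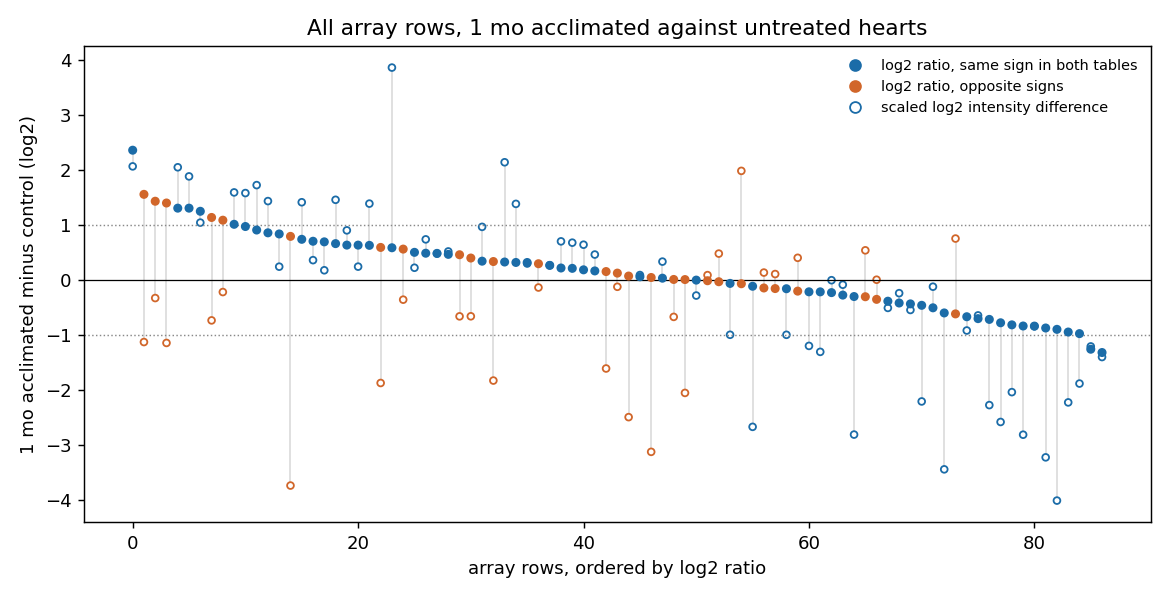
Each of the 87 array rows is placed from left to right by its log2 ratio, 1 mo acclimated minus control (filled points), with its scaled log2 intensity difference as an open point joined by a line. The colour marks the 60 rows whose sign was the same in both tables (blue) and the 27 rows with opposite signs (orange), the dotted lines mark 2-fold, and among the 10 rows listed at least 2-fold higher 5 are orange.

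The intensities gave the same sign as the listed ratio in 60 of 87 rows (69.0%). Of the 27 rows with opposite signs, 18 were listed as higher and 9 as lower in acclimated hearts. The correlation across rows between both tables was r = 0.521 (Spearman's rho 0.542), as a description, since rows are not replicates and both tables are labelled with the same samples. The typical gap between the tables was larger than the typical listed change. Its median was 0.62 log2 units, against a median listed size of 0.48, and it exceeded 1 log2 unit in 31 rows and 2 log2 units in 15 rows. The intensities were also more spread out, with an SD over rows of 1.53 log2 units, against 0.70 for the listed ratios. At least 2-fold by scaled intensity stood 15 rows higher (17.2%) and 25 lower (28.7%), and the median scaled difference over all 87 rows was -0.12.

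Both tables together gave 5 rows at least 2-fold higher (5.75% of 87) and 2 rows at least 2-fold lower (2.30%) in acclimated hearts. The highest was R332, listed 5.12-fold above the control (log2 difference 2.36), with an intensity of 905 against 184.1 in control hearts. The unscaled intensity ratio was 4.92. R332 was dim in both samples, below the median of each.

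A014 and R546 followed, both at 1.31 on the listed log2 scale. A014 had an intensity of 5688.5 in acclimated hearts and 1170.2 in control hearts, and R546 had 6443.4 in acclimated hearts and 1486.7 in control hearts. In scaled log2 intensity the differences were 2.05 for A014 and 1.88 for R546, so both rows were further from the control by intensity than by listed ratio. R172 was listed at 1.25, with an intensity of 1507.5 against 622.2 in control hearts. R594 was just past 2-fold in the list at 1.01, with an intensity of 5141.5 against 1451.3. All 5 of these rows had control intensities between 184.1 and 1486.7, below the control median of 3318.3. The part of this low control level in the result was not tested.

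The 2 rows that were lower by at least 2-fold in both tables had the smallest gaps between the listed ratio and the scaled intensity among these 7 rows, while against unscaled intensity the gaps of R172 (0.03) and R332 (0.06) were smaller than those of R470 (0.15) and R056 (0.28). R470 was listed at -1.32 and stood at -1.40 in scaled intensity, with 2412.5 in acclimated hearts against 5404.4 in control hearts. R056 was listed at -1.26 and stood at -1.21, with 2798.4 against 5485.7. Both had control intensities above the control median.

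Each row was then read in 5 ways: as listed, as listed after centring, with the listed control value subtracted, by scaled intensity and by unscaled intensity. All are re-expressions of the same 2 tables, so they are not 5 independent checks and add little to the count of rows past 2-fold in both. In all 5 ways 4 rows were at least 2-fold higher in acclimated hearts, R332, A014, R546 and R172, and 1 row was at least 2-fold lower, R470. R594 fell short after centring (0.89) and R056 by unscaled intensity (-0.97). The sign alone was the same in all 5 ways for 30 rows that were higher and 25 rows that were lower.

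The other 5 rows listed at least 2-fold higher had the opposite sign in scaled intensity. Row 635R was listed at 1.56, yet its intensity was 2451.8 in acclimated hearts and 4548.2 in control hearts. Row 14R was listed at 1.40, with 2104.1 in acclimated hearts and 3947.4 in control hearts. These 2 rows were more than 2-fold lower by scaled intensity, at -1.13 for 635R and -1.14 for 14R. The other 3 were nearer to 0. R058 was listed at 1.43 and stood at -0.33 in scaled intensity, S72R at 1.14 and -0.73, and A073 at 1.09 and -0.22. For A073 the intensities were almost equal, 2078 in acclimated hearts and 2054.8 in control hearts, and without scaling the difference was 0.02. The 2 tables thus give these 5 rows opposite directions, apart from A073 without scaling.

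**Figure D2:**
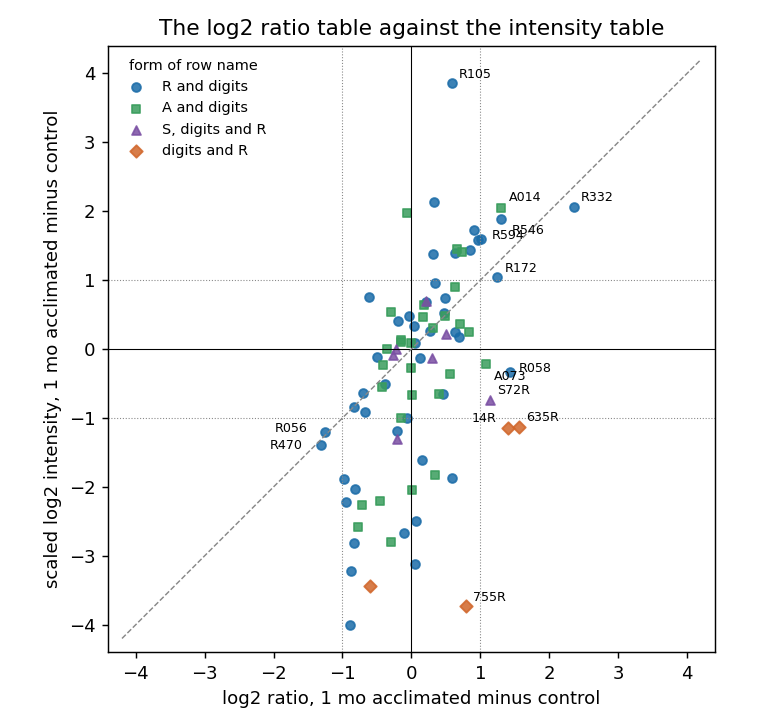
Each point is 1 of the 87 array rows, with the listed log2 ratio (1 mo acclimated minus control) across and the scaled log2 intensity difference of the same samples upward. The dashed line marks equal values and the dotted lines 2-fold. R332, A014, R546, R172 and R594 lie at the upper right and R470 and R056 at the lower left, while 635R, 14R and 755R lie below 0 on the intensity axis and above 0 on the ratio axis.

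The next rows lay between 1.5-fold and 2-fold. Of the 14 such rows listed as higher, 12 were also higher by scaled intensity and 7 were at least 2-fold higher there. These 7 were R472 (listed at 0.97, scaled intensity 1.58), R039 (0.91 and 1.72), R609 (0.86 and 1.43), A046 (0.74 and 1.41), A075 (0.66 and 1.46), R050 (0.63 and 1.39) and R105 (0.59 and 3.86). R039 had an intensity of 12316 in acclimated hearts against 3171.1 in control hearts, and A046 had 12434 against 3972.3. The 2 rows of opposite sign were 755R and R724. Row 755R was listed at 0.79 with an intensity of 872.5 in acclimated hearts against 9847.3 in control hearts, a scaled difference of -3.73, and its 2 tables lay further apart than those of any other of the 87 rows. R724 is described with the control values below.

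Of the 13 rows listed as lower by between 1.5-fold and 2-fold, 12 were lower by scaled intensity too, and 9 were at least 2-fold lower there. R087 was listed nearest to 2-fold (-0.97), with 692.6 in acclimated hearts against 2166 in control hearts. R520 had the lowest scaled intensity difference of all 87 rows, with 209.9 in acclimated hearts against 2862.3 in control hearts, at -4.00 in scaled intensity and -0.89 as listed. R240 was similar, at 1016.1 in acclimated hearts against 8042.8 in control hearts, a scaled difference of -3.22 against a listed -0.87. The remaining 6 were R523, R532, R011, A018, A039 and 849R, listed between -0.94 (R523) and -0.60 (849R), with scaled differences between -3.44 (849R) and -2.03 (R011). The way these 9 rows were picked, under 2-fold as listed and at least 2-fold by intensity, puts the intensity further below 0. The gap went from 0.91 log2 units in R087 to 3.11 in R520. The single row of opposite sign in this range was R242, named after its value was seen, listed at -0.61 and standing at 0.75 in scaled intensity.

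Among the 48 rows listed within 1.5-fold of the control, 29 had the same sign in both tables. A small listed change did not always mean a small change in intensity, since 13 of these rows were at least 2-fold away by scaled intensity, 3 higher and 10 lower. The 3 rows listed nearest to the control were A019, A017 and A062. A019 had almost equal intensities, 1973.9 in acclimated hearts and 2039.6 in control hearts. A017, listed at 0.01, had 1347.2 in acclimated hearts against 4739.5 in control hearts. A062, also listed at 0.01, had 14693 in acclimated hearts and 19860 in control hearts. R177 (listed at 0.05, scaled intensity -3.12) and R208 (0.07 and -2.49) were also among the 5 strongest contradictions.

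The control column of the ratio table should hold only 0, and 78 rows did. The 9 others were listed at -3.32 in 8 rows and at -6.64 in 1 row, R105. None of these 9 rows was at least 2-fold from the control with the control taken as 0, and 6 were listed as higher. Over all 87 rows, 17.2% were at least 2-fold higher by scaled intensity, and the median scaled difference was -0.12. Of these 9 rows, 8 were higher in acclimated hearts by scaled intensity and 4 were at least 2-fold higher. Those 4 were R105 (1138.4 in acclimated hearts against 66.8 in control hearts), R158 (6306.1 against 1218.1), A021 (6586.8 against 1417.9) and R609 (4073.3 against 1282.4). Of the others, A022, A034, A042 and A061 were between 0.11 and 0.54 in scaled log2 intensity. R724, the only one of the 9 with a control intensity above the control median, was lower by intensity (-1.87, listed at 0.59), at 2012.7 in acclimated hearts against 6249.6 in control hearts. With the listed control value subtracted, all 9 would be higher by between 3.02 and 7.23 log2 units, and the count of rows at least 2-fold higher would be 19 in place of 10. R105, R158, A021 and R609 were picked at 2-fold or more by intensity, and none of the 9 rows was listed at 2-fold. That choice alone puts their listed ratio with the control at 0 nearer to 0 than their intensity difference.

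The row names take 4 forms. The 46 names of R and digits held 36 rows with the same sign in both tables (78.3%) and 6 of the 7 rows that were at least 2-fold in both. The 30 names of A and digits held 18 rows of the same sign (60.0%) and 1 of the 7, A014. The 7 names of S, digits and R held 5 rows of the same sign. Of the 4 names of digits and R, 3 were listed as higher and all 4 were lower by scaled intensity, so that only 849R had the same sign. Their median scaled difference was -2.29, and their median listed difference was 1.10. The labels do not say what the forms stand for.

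Agreement was also counted by brightness. The rows were divided into 3 groups of 29 by their median intensity in the 7 other samples. In the dimmest group 21 rows had the same sign in both tables, in the middle group 20 and in the brightest group 19. The median gap between tables was 1.56 log2 units in the dimmest, 0.61 in the middle and 0.51 in the brightest group. By scaled intensity the dimmest rows were mostly lower in acclimated hearts, with a median of -1.61, while their median listed difference was 0.05. The 7 samples are all from treated rats, so a row bright mainly in control hearts can fall in the dimmest group. R240, for example, had 8042.8 in control hearts and a median of 1121.2 in the 7 samples. The part of this grouping in the medians was not tested.

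The 12 rows at least 2-fold from the control were next read in other states of the rats. These ratios share the control sample, so they are given side by side without a measure of overlap. R332 was listed at 0.61 after 2 days of acclimation, 2.36 after 1 month, 0.86 after deacclimation and 1.90 after reacclimation. Its intensity was below 0 in the 2 d acclimated, the deacclimated and the reacclimated samples, so those 3 values are uncertain, while the intensity of 2026 in the 1 mo acclimated, heat-stressed sample was above that of acclimated hearts without stress (905).

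R172 was listed at 0.37 after 2 days, 1.25 after 1 month, -0.28 after deacclimation and 1.15 after reacclimation, and its value after 1 month was the highest of the 9 samples. Its intensity was below 0 in the 2 d acclimated and the deacclimated samples. After reacclimation it was 707 against 622.2 in control hearts, and the scaled difference was below the control (-0.24). A014 was listed at 0.69 after 2 days, 1.31 after 1 month, 1.76 after deacclimation and 1.74 after reacclimation, above the control in all 4, although its scaled intensity after 2 days was below the control (-0.21). R546 was listed at 1.33, 1.31, 1.95 and 1.98 in the same order, and R594 at 1.13, 1.01, 0.72 and 1.36. Among rows whose tables disagreed, 14R was listed at 1.55, 1.40, 1.61 and 1.93 and 635R at 1.39, 1.56, 1.91 and 0.63. By scaled intensity both were below the control in all 4. R058 was above the control by scaled intensity after 2 days (0.71) and A073 after reacclimation (0.40). S72R was listed below the control after reacclimation (-0.05).

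The lower rows were R470 and R056. R470 was listed at -0.86 after 2 days, -1.32 after 1 month, -0.73 after deacclimation and -1.46 after reacclimation, below the control in all 4. R056 was listed at -0.54, -1.26, -0.78 and -1.09 in the same order. By intensity the rows were not below the control in every state. R470 had 5439.5 in the 2 d acclimated and 11515 in the deacclimated sample, against 5404.4 in control hearts, which is -0.88 and 0.42 in scaled log2 intensity. R056 had 11074 and 5843.9 in the same samples, against 5485.7 in control hearts, which is 0.13 and -0.58. After reacclimation both were below the control by scaled intensity, R470 at -2.32 and R056 at -2.72. Over all 87 rows the 1 mo acclimated sample was the highest of the 9 listed values in 5 rows (R172, A059, A020, A061 and A042) and the lowest in 3 (A044, R207 and R516), with the control taken as 0. Apart from R172, A042 and A061, which other parts of the naming rule cover, these rows were picked after their values were seen.

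**Figure D3:**
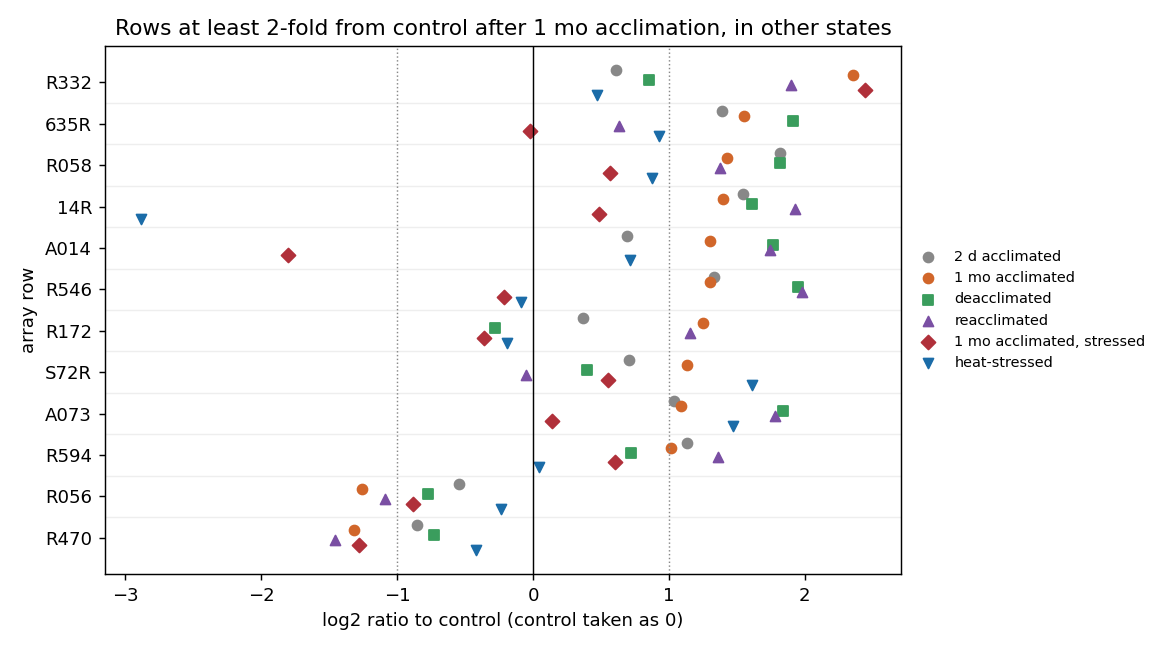
The 12 rows at least 2-fold from the control after 1 mo acclimation are listed from the highest to the lowest, with the log2 ratio to the control across (control taken as 0, dotted lines at 2-fold) in 6 groups of 1 sample each. R470 and R056 lie below 0 in all 6 groups, and R332, R058, A073 and R594 lie above 0 in all 6. A014 lies at -1.80 in the 1 mo acclimated, heat-stressed sample.

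The same month of acclimation was also measured under heat stress, in samples that the comparison above does not use: 1 mo acclimated, heat-stressed hearts against heat-stressed hearts of rats that were not acclimated. In this pair 12 rows were at least 2-fold higher (13.8% of 87) and 11 lower (12.6%) in the acclimated, stressed hearts. In 6 of the 12 higher rows the heat-stressed sample had a value far below its other rows, at or below -2.87 where the next lowest was -1.29. Without these 6 rows, 6 were higher (7.41% of 81) and 11 lower (13.6%).

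Differences without and with stress ran in the same direction in 42 of 87 rows (48.3%), and in 38 of 81 rows without those 6. The correlation across rows was r = 0.01 (Spearman's rho -0.05), and r = -0.05 (rho -0.08) without the 6 rows. By scaled intensity, over the 76 rows with a value in all 4 samples, 40 rows had the same sign (r = 0.11, rho 0.16). The doubt about the heat-stressed sample's columns applies to each of these values, and its part in them was not tested. The heat-stressed sample also held no intensity below 1511.1, with 11 rows empty, while R105 stood at 380 in the 1 mo acclimated, heat-stressed sample. The part of this in the signs by intensity was not tested.

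Of the 10 rows at least 2-fold higher without stress, 3 were above 0 and 7 below 0 with stress. Over all 87 rows the median difference with stress was also below 0, at -0.12, so most rows were below 0 there whatever their value without stress. R332 was at least 2-fold higher in both pairs, by 2.36 in acclimated over control hearts and by 1.97 in acclimated, stressed over stressed hearts. Its intensity was 2026 in the acclimated, stressed sample, and it is empty in the heat-stressed sample, so the second value could not be checked. Row 14R was also higher in both (1.40 and 3.37), the second with a heat-stressed value of -2.89, among the 6 that lie apart. R594 was above 0 in both (1.01 and 0.56). R470 and R056 were lower in both, R470 by -1.32 without and -0.86 with stress and R056 by -1.26 and -0.65. By scaled intensity the stressed pair did not bear out all of these signs, with -0.83 for 14R, -0.78 for R594, -0.53 for R470 and 0.08 for R056.

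**Figure D4:**
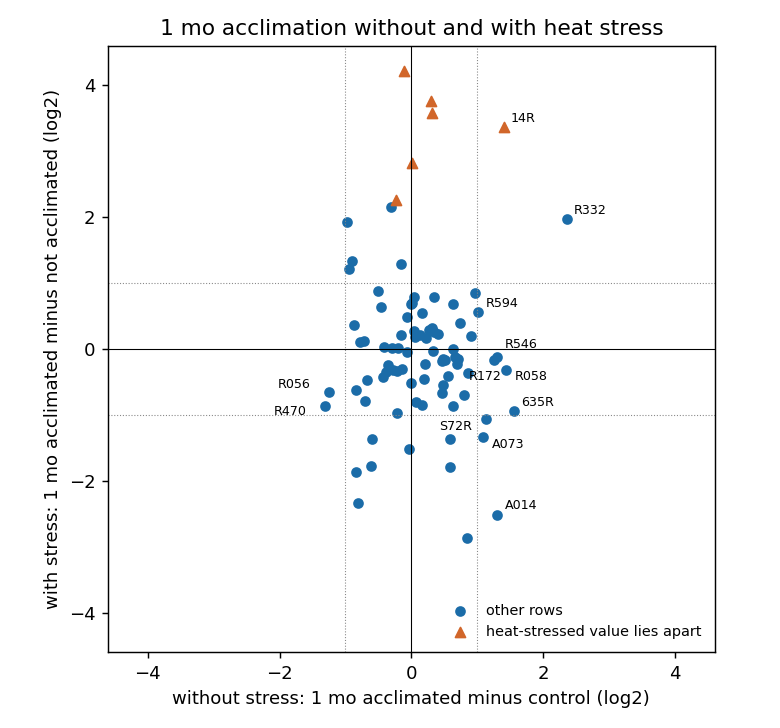
Each point is 1 of the 87 array rows, with the log2 difference of 1 mo acclimated minus control hearts across and that of 1 mo acclimated, heat-stressed minus heat-stressed hearts upward, each from 1 sample per group. Triangles mark the 6 rows whose heat-stressed value lies apart. R332 lies at the upper right, A014, A073 and S72R lie at the lower right, and r across rows is 0.01.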

How the data were processed

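Per the labels' protocols, RNA of the left ventricle was pooled, given a 32P label and put on a Clontech array. The authors deposited log2 values, which per the labels divide the geometric mean of a treated group by that of the control after normalization, and a table of intensity values on a linear scale. How values were normalized or background-corrected and why 87 rows were kept is not stated. Precision is limited by the number of arrays. The control was set to 0, log2 ratios were subtracted row by row, and rows at least 2-fold apart were counted. The counting was run on simulated rows with shifts well past 2-fold, which checks the code and not the error of these data. No test was possible with 1 value in each group. Heat-stressed values lay apart if they were at or below a value under -2.5 that the next value exceeded by 0.9 or more. A control value within 1e-05 of 0 was taken as 0. Alternatives were centring, the control as listed, rows left out, scaled or floored intensities and a threshold of 1.5-fold.

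Named rows were those at least 2-fold in the listed ratio, those at least 1.5-fold that were 2-fold by intensity in the same direction, the 5 largest contradictions, the 3 nearest 0, those with a control value away from 0 and those at least 2-fold in the same direction with and without stress. Rows and rules were chosen with earlier results of these data known. Tables were handled in pandas 2.3.3 with numpy 2.4.6 under Python 3.11.15, and figures were drawn with matplotlib 3.10.9.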

Additional observations from a re-analysis of the deposited data

Results flagged for a closer look

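In 3 rows the difference made by 1 month of acclimation was at least 2-fold in opposite directions without and with heat stress. A014 was higher by 1.31 in acclimated over control hearts and lower, at -2.51, in acclimated, stressed over stressed hearts, and the 2 effects were 3.82 log2 units apart. A073 stood at 1.09 without and -1.34 with stress (2.42 apart), and S72R at 1.14 without and -1.06 with stress (2.20 apart). By scaled intensity A014 kept both signs (2.05 without and -2.97 with stress). The second value came from 391.9 in acclimated, stressed hearts against 2515.8 in stressed hearts. The heat-stressed sample held no intensity below 1511.1, and 11 rows were empty. In that pair 3 rows were at least 2-fold higher and 21 lower by scaled intensity, of 76 rows. The doubt about the heat-stressed sample's columns applies here too. A073 and S72R were lower in both by scaled intensity, A073 by -0.22 without and -2.78 with stress and S72R by -0.73 and -0.86. With 1 sample per group the difference between the effects was not tested.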

How the results depend on the processing

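The main counts were 10 rows at least 2-fold higher and 2 lower without stress, 12 higher and 11 lower with stress, and 7 rows past 2-fold in the same direction in both tables. Centring gave 5 lower rows. Subtracting the listed control values gave 19 higher rows and 11 past 2-fold in both tables. At 1.5-fold there were 24 higher and 15 lower rows, 27 in both tables, and 20 higher and 22 lower with stress. Scaled intensities gave 25 lower rows, and 3 higher and 21 lower with stress. Leaving out the rows of the heat-stressed sample that lie apart gave 6 higher rows with stress, and leaving out the dimmest 25% of rows gave 7 higher and 6 lower with stress. With low intensities set to the 10th percentile of their sample, 4 rows passed 2-fold in both tables. The count of rows with the same sign in both tables was 60 and stayed between 40 (of 65) and 63 under its alternatives, and that of rows with the same sign without and with stress was 42 and stayed between 36 (of 65) and 45.

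The median log2 ratio of 0.13 was 0.21 with the listed control subtracted, 0.066 without the 9 rows whose control value was not 0 and 0.15 without the dimmest 25%, and it turned to -0.12 by scaled intensity. The correlation between tables of 0.52 was 0.55, 0.56 and 0.37 under the same first 3 changes and 0.42 with low intensities at a floor. Of the rows listed at least 2-fold higher, those lower by scaled and by unscaled intensity were 14R (-1.14 and -0.91), 635R (-1.13 and -0.89), R058 (-0.33 and -0.093) and S72R (-0.73 and -0.50), and A073 by scaled intensity (-0.22). The cause of these changes was not tested. No paired analysis was possible because each group is 1 sample. With 1 sample per group, the error of any single row could not be estimated.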
